A study of Homo sapiens with 12 samples.

Results

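The replication-independent histone variants described here are 10 genes of the 50868 in the deposited count table, found by their gene names: H2AFZ, H2AFV, H2AFX, H2AFJ, H2AFY, H2AFY2, H3F3A, H3F3B, H1F0 and H1FX. All 10 had enough reads to be tested, among 17717 tested genes. They were followed across 12 RNA-seq libraries of MG63, an established human osteosarcoma line, in 4 groups of 3. MG63 cells given 1 µM anticarin-β, a small molecule, were set against cells given vehicle, both collected at 18 hours. MG63 cells transfected with an siRNA specific for CCT4, a subunit of the chaperonin that folds actin and tubulin, were set against cells transfected with Allstar control siRNA, both collected after 2 days. By its title the series looks for genes whose expression the compound alters, and its design names the knockdown as the second treatment. All groups were grown in the same serum-containing medium, and the 2 experiments share no control libraries.

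Library totals ran from 13393750 to 17492095 counts, so that 3 counts in 1 library, the floor for detection, correspond to 0.172 to 0.224 CPM, the counts of a gene scaled to a common library size. Such floors divide by the totals alone and cover counting error only. The CPM levels below also carry a scaling factor per library. Thus 3 counts in vehicle replicate 2 stand at 0.181 CPM on that scale, against a floor of 0.193 CPM. CCT4 itself stood at 206 ± 9.18 CPM in the libraries labelled CCT4 siRNA and at 177 ± 14.4 CPM in those with control siRNA (SD, n = 3 each; adjusted p = 0.129, edgeR), so its mRNA was not lower there and the labels are used below only as labels. With the compound CCT4 stood at 82.3 ± 8.49 CPM, against 236 ± 22.9 CPM with vehicle, 2.87-fold lower (adjusted p = 1.84e-08, edgeR). The mesenchymal markers matched the labelled cell type: all 8 were detected in every library, from 2.03 to 33.8 CPM for RUNX2 up to 500 to 5240 CPM for COL1A1, while the epithelial markers EPCAM, CDH1 and KRT5 and the leukocyte markers PTPRC and CD3E did not exceed 2.13 CPM in any library. The endothelial markers PECAM1 and CDH5 reached 14.4 and 4.94 CPM. Separate cultures are not stated for the replicates, so each p-value here reflects the spread among these libraries alone, and that spread may be technical.

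Most histones are made from clustered genes without introns, in step with DNA replication, and are deposited behind the fork. Variant histones are encoded by genes outside those clusters, are mostly made from polyadenylated mRNAs throughout the cell cycle, and are placed by their own chaperones at promoters, at damaged DNA or in silent chromatin. H2A.Z is encoded by H2AFZ and H2AFV, H3.3 by H3F3A and H3F3B, and macroH2A, an H2A with a large globular domain, by H2AFY and H2AFY2. H2AFX encodes H2AX, which is phosphorylated around DNA breaks and whose transcript also exists in a replication-linked form without a poly(A) tail. H2AFJ encodes H2A.J, and H1F0 and H1FX encode the linker histones H1.0 and H1.10, the first of which is known to accumulate in quiescent and differentiated cells.

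The H3.3 genes are shown first, because their sequences decide what the read counts can tell apart. The coding sequences of H3F3A (chromosome 1) and H3F3B (chromosome 17), each 411 bases in GENCODE 29 on GRCh38, differ at 88 positions (78.6% identity). H3F3AP4 on chromosome 2, a processed copy of H3F3A annotated as a pseudogene, is also 411 bases long and matches the H3F3A coding sequence at all 411. H3F3AP6 on chromosome 4 differs from it at 3. The first 150 coding bases, 5′ to 3′ on the strand of each gene, are given with every letter that differs from H3F3A in capitals:
H3F3A: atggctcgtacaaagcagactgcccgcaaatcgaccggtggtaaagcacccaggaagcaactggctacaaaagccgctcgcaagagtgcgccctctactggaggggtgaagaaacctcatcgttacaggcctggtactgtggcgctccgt
H3F3AP4: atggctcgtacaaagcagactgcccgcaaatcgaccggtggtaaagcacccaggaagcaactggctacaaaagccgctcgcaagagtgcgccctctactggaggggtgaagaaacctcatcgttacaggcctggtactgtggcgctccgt
H3F3B: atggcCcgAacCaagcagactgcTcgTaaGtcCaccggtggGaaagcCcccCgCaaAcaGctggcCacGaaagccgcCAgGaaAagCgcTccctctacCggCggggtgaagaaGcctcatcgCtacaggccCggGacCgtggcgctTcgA
H3F3B carries 30 differences in this stretch, and H3F3AP4 and H3F3AP6 (not shown) carry none. A read that lies inside this stretch can thus be told from H3F3B but not from these pseudogenes. How the authors' counting handled multi-mapping reads is not stated in the sources used, and H3F3A values are therefore uncertain.

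Promoters are described next, to show which members share a promoter plan. With the compound, members that share 1 responded in opposite directions, as described below. A link between promoter motifs and response was not tested. In RefSeq windows from 250 bases before to 50 bases after each gene's start (GRCh38.p14), found for 9 of the 10 genes, both strands were searched for CCAAT and TATAAA, which occur in 34.6% and 11.5% of all 35116 such windows. Only H2AFX, H2AFZ and H3F3B among the 9 genes hold at least 3 CCAAT together with a TATAAA. That combination is present in 0.336% of all windows. The cut of 3 equals the CCAAT count of H2AFZ itself, so this share is a description and not a test of enrichment. TATAAA begins 31 bases before the start in H2AFZ and H2AFX and 29 bases before it in H3F3B. The 250 bases before the start, 5′ to 3′ on the gene's strand (minus for all of them), have CCAAT, its reverse complement ATTGG and TATAAA in capitals:
H2AFZ, chr4:99950276-99950525: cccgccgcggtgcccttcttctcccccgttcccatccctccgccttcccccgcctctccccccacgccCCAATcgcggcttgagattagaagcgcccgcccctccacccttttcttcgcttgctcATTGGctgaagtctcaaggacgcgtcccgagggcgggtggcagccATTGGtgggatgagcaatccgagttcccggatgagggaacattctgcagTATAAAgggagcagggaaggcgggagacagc
H2AFX, chr11:119095466-119095715: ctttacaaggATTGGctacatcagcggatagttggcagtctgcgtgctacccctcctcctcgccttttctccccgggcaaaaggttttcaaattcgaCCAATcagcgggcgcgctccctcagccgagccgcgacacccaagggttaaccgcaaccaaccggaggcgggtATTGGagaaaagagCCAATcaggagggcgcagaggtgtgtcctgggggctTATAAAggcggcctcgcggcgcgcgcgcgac
H3F3B, chr17:75779780-75780029: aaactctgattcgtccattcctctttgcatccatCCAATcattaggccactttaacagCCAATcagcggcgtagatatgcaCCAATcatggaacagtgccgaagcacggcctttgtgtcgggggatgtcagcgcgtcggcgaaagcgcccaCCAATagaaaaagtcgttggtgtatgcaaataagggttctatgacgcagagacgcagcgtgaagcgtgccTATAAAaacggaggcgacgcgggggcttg
H2AFV has 4 CCAAT and no TATAAA, and H1FX lacks that motif but has a TATAAA 31 bases before the start. No window of the 9 genes held TGACGTCA (1.85% of all windows), the motif TGANTCA (7.71%) or the motif TTTCGCGC (0.515%). GGGCGG, present in 45.0% of all windows, was found in windows of H2AFV, H2AFY, H2AFZ, H3F3A and H3F3B, and AAACACA, in 5.64% of all, in H3F3A windows. A match of letters is a description and not a shown binding site.

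With anticarin-β, 6 of the 10 variant mRNAs rose against vehicle and 4 fell, with H2AFV changing sign under scaling by library totals. H2AFZ rose most, 2.44-fold, followed by H1FX at 2.02-fold, while H2AFY2 fell most, to a level 4.96-fold lower. Within each pair of related genes, the members responded unequally: the major H2A.Z gene rose more than H2AFV, H3F3A rose as H3F3B fell, and H2AFJ rose as H2AFX fell. The compound changed most of the transcriptome, 73.0% of tested genes (34.9% higher, 38.0% lower). A call by itself was thus not unusual here, and sizes are the more informative measure. With a change of at least 2-fold also required, 2 members were called higher and 1 lower. Over all 17717 tested genes, 3700 were higher and 4401 lower at that size. The median log2 fold change was 0.416 over the 10 members and -0.063 over all tested genes. When libraries were scaled by their totals alone, the median of all genes shifted to -0.48, with 4292 genes higher and 8959 lower, H2AFV, H3F3A and H1F0 lost their calls, and 3 members were called higher with 4 lower. In bulk RNA, a change in the share of cells in one state and a change in RNA per cell cannot be told apart.

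**Figure D1:**
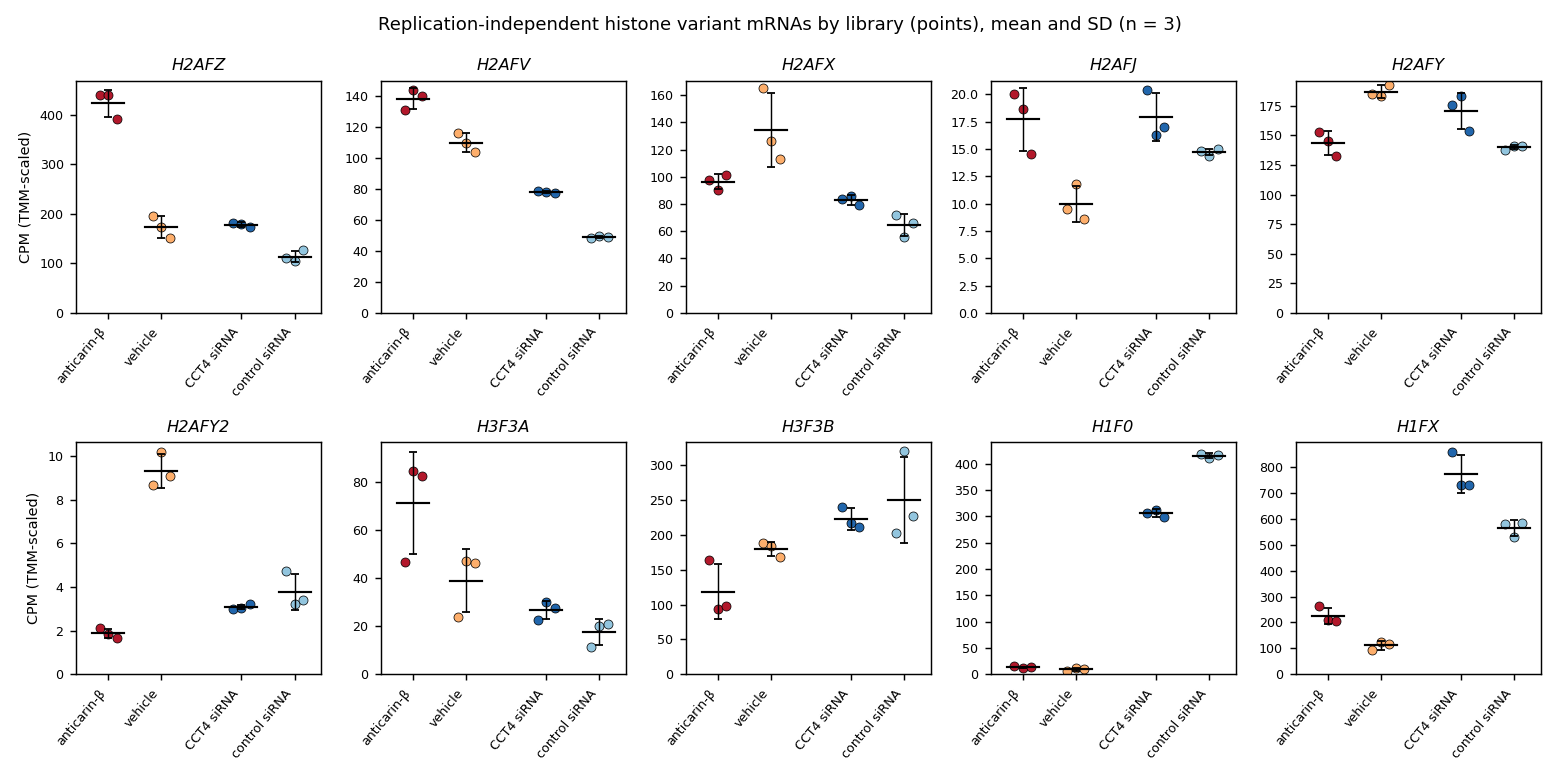
Level of each variant mRNA in every library, in CPM scaled by the trimmed mean of M-values (TMM), with 4 groups of 3 on the x axis; points are libraries, long bars means and whiskers SD. H2AFZ is highest in the 3 anticarin-β libraries, H2AFY2 is highest in the 3 vehicle libraries, and H1F0 and H1FX are highest in both groups of the siRNA experiment.

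H2AFZ (ENSG00000164032, chr4:99948086-99950388, minus strand, GRCh38), the more highly expressed H2A.Z gene, stood at 439, 439 and 392 CPM with anticarin-β, against 195, 174 and 151 CPM with vehicle. Every treated library lay above every vehicle library, with a gap wider than the spread in either group. The log2 fold change was 1.29 ± 0.0996 (SE; 95% interval of the fold 2.10 to 2.83; adjusted p = 1.12e-07, edgeR). H2AFV (ENSG00000105968, chr7:44826791-44848083, minus strand), which encodes the second H2A.Z protein, stood at 131, 144 and 140 CPM with anticarin-β and at 116, 110 and 104 CPM with vehicle. Its groups did not overlap either, but the gap was small: 1.26-fold, or 0.33 ± 0.063 on the log2 scale (SE; adjusted p = 0.000392, edgeR), which turned to -0.0853 (adjusted p = 0.263) when scaled by library totals. H2A.Z mRNA from both genes together came to 562 ± 26.2 CPM with anticarin-β and 283 ± 28.5 CPM with vehicle (SD, n = 3 each).

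H2AFX (ENSG00000188486, chr11:119093854-119095467, minus strand), whose product is phosphorylated at DNA breaks, stood at 97.6, 90.2 and 101 CPM with anticarin-β, against 165, 126 and 113 CPM with vehicle. All treated libraries were lower, and vehicle replicate 1 stood above the other vehicle libraries. The mRNA was 1.40-fold lower (log2 fold change -0.48 ± 0.127, SE; adjusted p = 0.00415, edgeR). Without vehicle replicate 1 the log2 fold change was -0.322 (adjusted p = 0.013). H2AFJ (ENSG00000246705, chr12:14774383-14778002, plus strand), an H2A gene whose protein is known to accumulate in senescent fibroblasts, moved the other way, with 20.0, 18.7 and 14.5 CPM under anticarin-β and 9.48, 11.8 and 8.61 CPM under vehicle. The groups did not overlap, and H2AFJ was 1.78-fold higher (log2 fold change 0.83 ± 0.151, SE; adjusted p = 0.000264, edgeR).

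The macroH2A genes both fell with the compound, by very different amounts. H2AFY (ENSG00000113648, chr5:135333900-135399914, minus strand), the main source of macroH2A here, had 153, 145 and 133 CPM with anticarin-β and 185, 183 and 193 CPM with vehicle. It was 1.30-fold lower with no overlap between groups (log2 fold change -0.38 ± 0.076, SE; adjusted p = 0.000581, edgeR). H2AFY2 (ENSG00000099284, chr10:70052796-70112280, plus strand), which encodes the less abundant macroH2A2, had 2.10, 1.85 and 1.67 CPM with anticarin-β, against 8.68, 10.2 and 9.09 CPM with vehicle. These levels rest on 25, 20 and 20 reads with anticarin-β and on 163, 169 and 170 reads with vehicle. The drop is far outside the spread of either group (log2 fold change -2.31 ± 0.185, SE; adjusted p = 1.54e-07, edgeR), and its size ranged only from -2.4 to -2.23 when single libraries were left out.

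Reads counted to H3F3A (ENSG00000163041, chr1:226061851-226072001, plus strand) gave 46.8, 84.3 and 82.4 CPM with anticarin-β and 23.7, 46.9 and 46.2 CPM with vehicle. Replicate 1 was the lowest library in each group, and the lowest treated value lay just under the highest vehicle value, so the groups overlapped. The fitted change was 1.83-fold higher (log2 fold change 0.87 ± 0.294, SE; adjusted p = 0.0175, edgeR). That call was lost with library totals (0.457, adjusted p = 0.169), without vehicle replicate 1 (0.599, adjusted p = 0.0699), without anticarin-β replicate 2 (0.731, adjusted p = 0.066) and without anticarin-β replicate 3 (0.751, adjusted p = 0.0617). H3F3B (ENSG00000132475, chr17:75776434-75785893, minus strand), the other H3.3 gene, gave 164, 93.7 and 97.7 CPM with anticarin-β, against 188, 184 and 169 CPM with vehicle. Here replicate 1 was the highest treated library, close to the lowest vehicle library. H3F3B was 1.52-fold lower (log2 fold change -0.60 ± 0.202, SE; adjusted p = 0.0168, edgeR), with values of -0.915 (adjusted p = 0.000351) without anticarin-β replicate 1, -0.461 (adjusted p = 0.0755) without replicate 2 and -0.482 (adjusted p = 0.0729) without replicate 3.

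Most reads that matched H3F3A or its copies were counted to the copies. Of the reads counted to H3F3A and to its 5 named pseudogenes together, 74.6% to 87.5% per library were assigned to the pseudogenes, whereas the pseudogenes of H3F3B and H2AFZ held at most 1.46% and 0.233% of the joint reads. H3F3AP4, the copy identical to the coding sequence, stood at 198 ± 2.87 CPM with anticarin-β, 124 ± 11.0 CPM with vehicle, 82.3 ± 4.37 CPM in the libraries labelled CCT4 siRNA and 52.1 ± 0.307 CPM with control siRNA (SD, n = 3 each). H3F3A and its copies summed to 290, 332 and 328 CPM with anticarin-β, against 189, 200 and 188 CPM with vehicle. The summed libraries separated cleanly, with replicate 1 close to the others, and the log2 fold change was 0.719 (adjusted p = 3.92e-06, edgeR). In the siRNA experiment the sums were 118, 137 and 134 CPM in the libraries labelled CCT4 siRNA and 76.7, 87.2 and 87.4 CPM with control siRNA, again without overlap (log2 fold change 0.631, adjusted p = 0.000317, edgeR). The sum was examined after the low replicate 1 values of H3F3A had been seen.

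**Figure D2:**
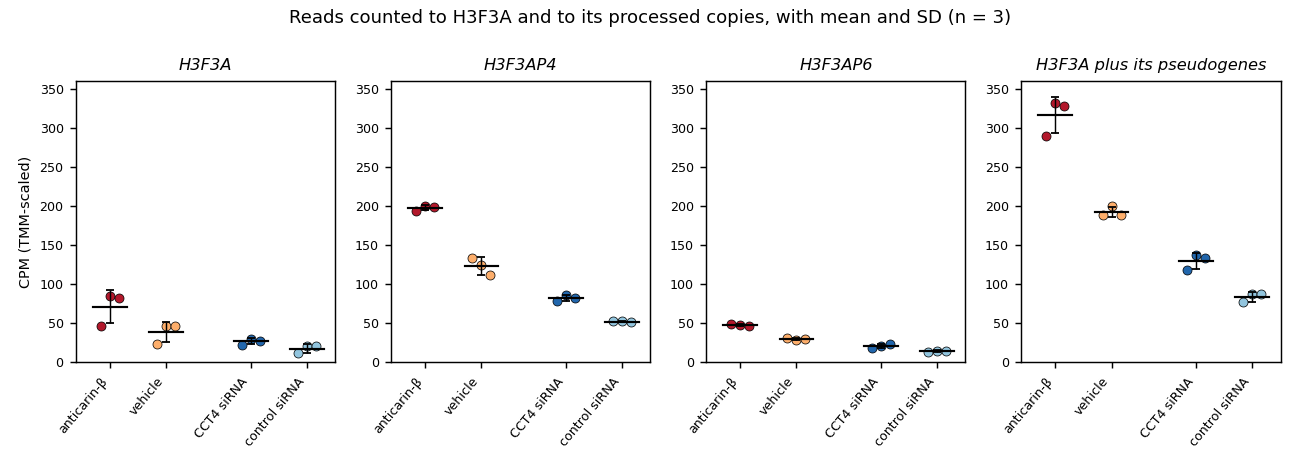
CPM (TMM-scaled) counted to H3F3A, to its tested pseudogenes H3F3AP4 and H3F3AP6, and to H3F3A plus all 5 named pseudogenes, by group; points are libraries, long bars means and whiskers SD (n = 3). Most reads lie on H3F3AP4, and the H3F3AP4 points of each group lie close together, from 194 to 200 CPM with anticarin-β and from 112 to 134 CPM with vehicle.

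Of the linker histones, H1FX (ENSG00000184897, chr3:129314771-129316277, minus strand, a single exon) had 262, 208 and 206 CPM with anticarin-β, against 93.1, 126 and 115 CPM with vehicle. All treated libraries were higher, and the mRNA was 2.02-fold up (log2 fold change 1.02 ± 0.122, SE; adjusted p = 7.48e-06, edgeR). H1F0 (ENSG00000189060, chr22:37805093-37807436, plus strand, a single exon) was low in this experiment, with 14.8, 11.3 and 12.9 CPM under anticarin-β and 6.93, 11.2 and 9.62 CPM under vehicle. The groups nearly touched, and the difference of 1.41-fold was called (log2 fold change 0.50 ± 0.145, SE; adjusted p = 0.0075, edgeR). That call was lost with library totals (0.0836, adjusted p = 0.599) and with the 6 libraries of the experiment alone (0.496, adjusted p = 0.0513), and the value fell to 0.316 (adjusted p = 0.0188) without vehicle replicate 1. For 9 of the 10 members, all but H3F3A, the treated and vehicle libraries did not overlap, as was the case for 74.6% of tested genes.

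In the libraries labelled CCT4 siRNA, 4 variant mRNAs rose against control siRNA (H2AFV, H2AFZ, H1FX and H2AFY), 1 fell (H1F0) and 5 did not pass the test. The largest changes were 1.59-fold for H2AFV, which had risen 1.26-fold with the compound, and 1.56-fold for H2AFZ, which had risen 2.44-fold. In the same comparison 19.7% of tested genes were called, 10.7% higher and 9.04% lower. The median log2 fold change was 0.328 over the members and 0.0072 over all tested genes. Scaling by library totals moved the median of all genes to -0.12, with 902 genes higher and 2800 lower, and left 2 members higher and 1 lower. The 3 and 3 libraries did not overlap for 9 of the 10 members, against 41.8% of tested genes.

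The H2A.Z genes rose side by side. H2AFZ stood at 182, 179 and 173 CPM in the libraries labelled CCT4 siRNA and at 110, 104 and 127 CPM with control siRNA. The groups were well apart (log2 fold change 0.64 ± 0.099, SE; adjusted p = 0.000968, edgeR). H2AFV had 78.7, 78.1 and 77.2 CPM in the libraries labelled CCT4 siRNA, against 48.5, 49.6 and 49.2 CPM with control siRNA. Its replicates lay close together, with SDs of 0.765 CPM and 0.550 CPM in those groups, and the log2 fold change was 0.67 ± 0.064 (SE; adjusted p = 3.64e-05, edgeR). H2AFZ and H2AFV kept their calls in every alternative tried except the 2-fold threshold, and H2AFV was the only member besides H2AFZ to pass at an adjusted p of 0.01.

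H2AFX had 83.8, 86.1 and 79.3 CPM in the libraries labelled CCT4 siRNA and 71.6, 56.0 and 65.8 CPM with control siRNA. The groups did not overlap, but the test was not passed (log2 fold change 0.37 ± 0.128, SE; adjusted p = 0.0644, edgeR). It was passed with the 6 libraries of the experiment alone (0.350, adjusted p = 0.033) and without vehicle replicate 1 (0.365, adjusted p = 0.0154) or vehicle replicate 3 (0.365, adjusted p = 0.0415), which enter only through the shared estimate of spread. H2AFJ had 20.4, 16.3 and 17.0 CPM in the libraries labelled CCT4 siRNA and 14.8, 14.4 and 15.0 CPM with control siRNA. That difference was not called (log2 fold change 0.28 ± 0.147, SE; adjusted p = 0.209, edgeR), and it came to 0.175 (adjusted p = 0.528) without CCT4 siRNA replicate 1.

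H2AFY had 176, 183 and 154 CPM in the libraries labelled CCT4 siRNA, against 138, 141 and 141 CPM with control siRNA. The first group was higher throughout, 1.22-fold on average (log2 fold change 0.29 ± 0.076, SE; adjusted p = 0.02, edgeR). The call was lost with library totals (0.159, adjusted p = 0.166) and on leaving out replicate 1 or 2 of either group of the experiment, with log2 fold changes of 0.239 to 0.293 and adjusted p of 0.0557 to 0.0858. H2AFY2 had 3.01, 3.04 and 3.21 CPM in the libraries labelled CCT4 siRNA and 4.74, 3.23 and 3.40 CPM with control siRNA. Control replicate 1 alone stood well above the rest, and the difference was not called (log2 fold change -0.29 ± 0.176, SE; adjusted p = 0.274, edgeR). Without that library it was -0.105 (adjusted p = 0.756).

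H3F3A had 22.4, 30.0 and 27.6 CPM in the libraries labelled CCT4 siRNA and 11.3, 20.2 and 20.9 CPM with control siRNA. As with the compound, replicate 1 was lowest in both groups, and the difference was not called for the gene alone (log2 fold change 0.61 ± 0.305, SE; adjusted p = 0.186, edgeR), in contrast to the sum with its copies above. Without control replicate 1 the H3F3A value was 0.376 (adjusted p = 0.472). H3F3B had 241, 218 and 211 CPM in the libraries labelled CCT4 siRNA, against 203, 321 and 227 CPM with control siRNA. The groups overlapped, control replicate 2 stood far above the others, and no change was called (log2 fold change -0.16 ± 0.200, SE; adjusted p = 0.625, edgeR). Without that library the value was 0.055, and without control replicate 1 it was -0.295.

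H1FX had 857, 729 and 730 CPM in the libraries labelled CCT4 siRNA, against 582, 531 and 583 CPM with control siRNA. It was the most abundant member per kilobase in both groups and 1.37-fold higher in the first (log2 fold change 0.45 ± 0.12, SE; adjusted p = 0.0215, edgeR). The call was lost with library totals (0.319, adjusted p = 0.0707) and without control replicate 1 (0.470, adjusted p = 0.0526), control replicate 2 (0.406, adjusted p = 0.0793) or CCT4 siRNA replicate 1 (0.368, adjusted p = 0.0859). H1F0 had 307, 312 and 298 CPM in the libraries labelled CCT4 siRNA and 418, 410 and 417 CPM with control siRNA. Its groups were tight and far apart, 1.36-fold lower in the first (log2 fold change -0.44 ± 0.121, SE; adjusted p = 0.0237, edgeR). Leaving out any 1 of the 6 libraries of this experiment left the log2 fold change between -0.457 and -0.424 while the adjusted p rose to between 0.0583 and 0.0754.

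**Figure D3:**
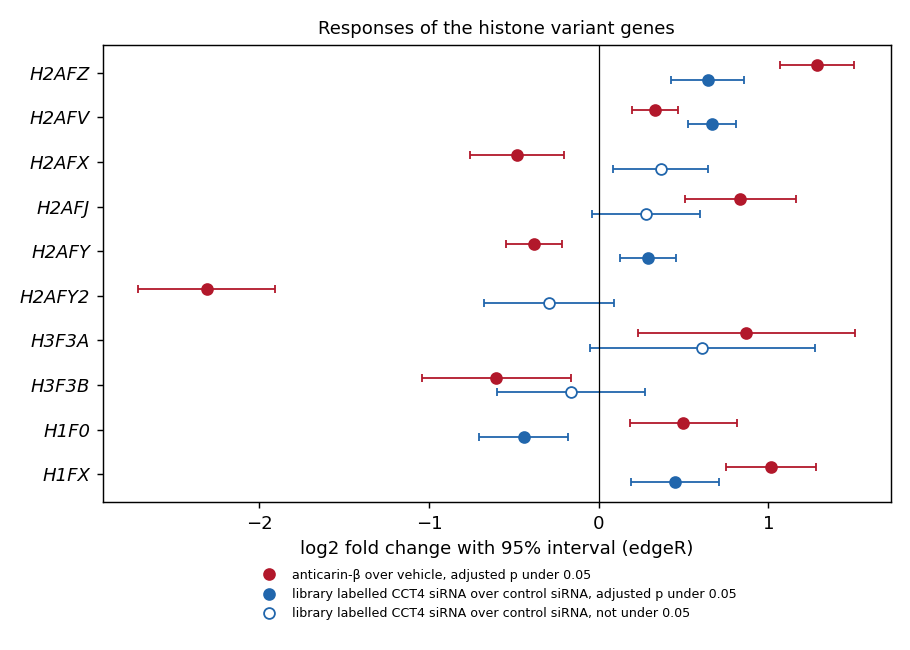
Log2 fold change of each variant mRNA with its 95% interval (edgeR), for anticarin-β over vehicle in red and libraries labelled CCT4 siRNA over control siRNA in blue; filled points have an adjusted p under 0.05. H2AFY2 lies farthest left under the compound. H2AFX, H2AFY and H1F0 lie on opposite sides of 0 in the 2 comparisons, with the blue H2AFX point not called. The red H2AFV point crosses 0 when libraries are scaled by their totals.

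The difference between the 2 responses was tested for each member. It was called for 8 of the 10, against 59.9% of tested genes (27.5% positive, 32.4% negative). The response to the compound was the higher one for H2AFZ (difference in log2 fold change 0.64 ± 0.139, SE; adjusted p = 0.00153), H1F0 (0.94 ± 0.189; adjusted p = 0.000867), H1FX (0.57 ± 0.17; adjusted p = 0.012) and H2AFJ (0.55 ± 0.21; adjusted p = 0.0368), all by edgeR. It was the lower one for H2AFY2 (-2.02 ± 0.257; adjusted p = 2.15e-05), H2AFY (-0.67 ± 0.108; adjusted p = 0.000151), H2AFX (-0.85 ± 0.18; adjusted p = 0.00134) and H2AFV (-0.34 ± 0.09; adjusted p = 0.00629). Thus in the main fit H2AFY and H1F0 were called in opposite directions in the 2 experiments, with the difference itself past the threshold. As given above, the siRNA call of each was lost on leaving out single libraries. The H1F0 call with the compound was lost with library totals and with the libraries of that experiment alone. The H3.3 genes did not pass this test: H3F3A had a difference of 0.26 ± 0.422 (adjusted p = 0.619; from -0.0116 without vehicle replicate 1 to 0.486 without control siRNA replicate 1 over single libraries left out) and H3F3B of -0.44 ± 0.284 (adjusted p = 0.2, edgeR). With library totals, where 3724 genes were positive and 7283 negative, H1F0 alone stayed positive among the members, and H2AFZ, H1FX and H2AFJ missed the threshold at differences of 0.355, 0.283 and 0.269. The H2AFJ difference also missed it with upper-quartile scaling (0.464, adjusted p = 0.0782), without a low-count filter (0.533, adjusted p = 0.0677) and on leaving out any library other than vehicle replicate 2, anticarin-β replicate 3 and CCT4 siRNA replicate 1 (0.449 to 0.563). The H3F3B difference passed it with library totals (-0.726, adjusted p = 0.042), without anticarin-β replicate 1 (-0.751, adjusted p = 0.0101) and without control siRNA replicate 2 (-0.668, adjusted p = 0.0473).

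Ratios between related genes inside 1 library do not depend on scaling between libraries. With anticarin-β, the log2 ratio of H2AFZ to H2AFV was 1.74, 1.61 and 1.48, against 0.748, 0.668 and 0.541 with vehicle, a shift of 0.958. The balance of the H2A.Z genes thus moved towards H2AFZ in every treated library. In the siRNA experiment it was 1.21, 1.19 and 1.16 in the libraries labelled CCT4 siRNA and 1.18, 1.07 and 1.37 with control siRNA, a difference of -0.02 with overlapping groups (exact permutation p = 0.9). H2AFY over H2AFY2 was 6.16, 6.26 and 6.27 with anticarin-β and 4.41, 4.16 and 4.4 with vehicle, so that the macroH2A mRNA was more completely of the H2AFY kind in treated cells. H3F3A over H3F3B was -1.81, -0.153 and -0.246 with anticarin-β and -2.99, -1.97 and -1.87 with vehicle, and replicate 1 was lowest in both groups. With the pseudogene reads added to H3F3A the shift was 1.37 in place of 1.54. H2AFX over H2AFJ averaged 2.45 ± 0.3 with anticarin-β and 3.75 ± 0.35 with vehicle (SD, n = 3 each). H1F0 over H1FX averaged -4.11 ± 0.1 with anticarin-β and -3.6 ± 0.13 with vehicle. In the compound experiment none of the 5 ratios overlapped between groups. Each gave a two-sided exact permutation p of 0.1, also after adjustment over the 5 pairs. That is the smallest p such a test of 3 against 3 can give. Levels of single genes did not overlap for 74.6% of tested genes with the compound and 41.8% in the siRNA experiment. Whether ratios of other gene pairs separate as often was not tested. In the siRNA experiment the differences were 0.792 for H3F3A over H3F3B, 0.559 for H2AFY over H2AFY2 and -0.89 for H1F0 over H1FX, none overlapping (exact p = 0.1, adjusted 0.167 over the 5 pairs), and 0.0988 for H2AFX over H2AFJ, which overlapped (exact p = 0.5, adjusted 0.625). That last value ranged from 0.0062 (without CCT4 siRNA replicate 2) and 0.0184 (without control replicate 2) to 0.175 (without control replicate 1) and 0.19 (without CCT4 siRNA replicate 1).

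**Figure D4:**
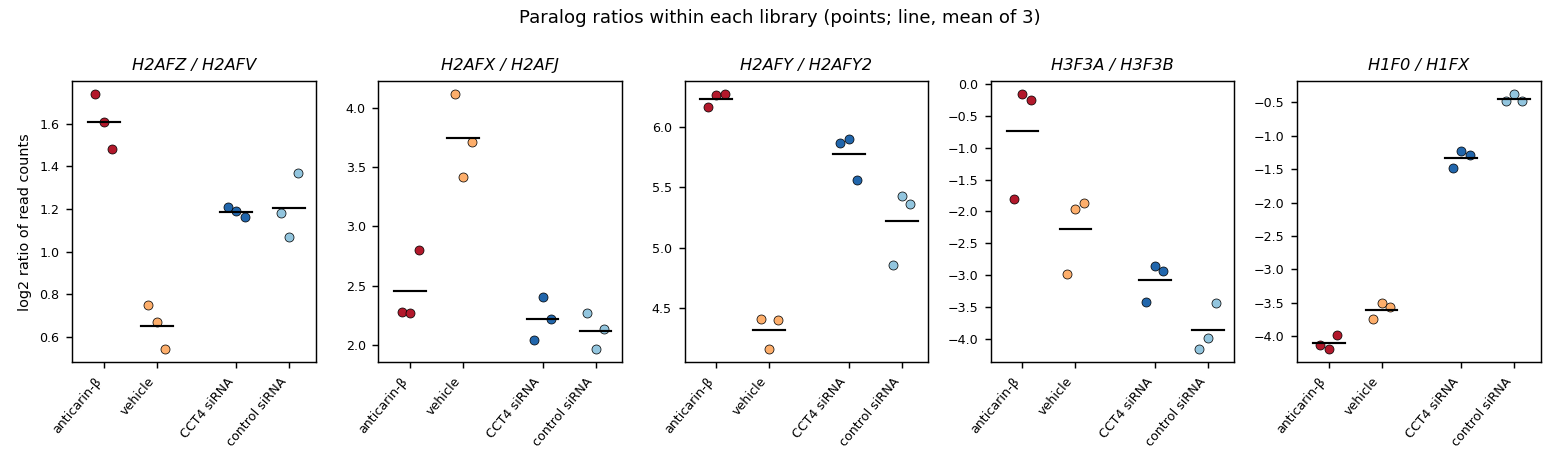
Log2 ratio of the read counts of paired variant genes within each library (y axis, a different range per panel), by group; points are libraries and lines are means of 3. With anticarin-β the H2AFZ/H2AFV points lie near 1.61, against 0.652 with vehicle, while the siRNA groups both lie near 1.2.

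Levels in the experiments' controls differed far more for the linker histones than for the core variants. H1F0 averaged 415 ± 4.33 CPM with control siRNA and 9.24 ± 2.14 CPM with vehicle (SD, n = 3 each), a 45.0-fold gap that only 17 of 17717 tested genes, H1F0 included, equalled or exceeded in either direction. H1FX was 5.08-fold higher with control siRNA, a size reached by 556 genes. The other 8 members lay within 2.5-fold: H2AFJ and H3F3B were 1.48-fold and 1.39-fold higher with control siRNA, and H2AFY, H2AFZ, H2AFX, H3F3A, H2AFV and H2AFY2 had ratios of control siRNA over vehicle of 0.748, 0.656, 0.479, 0.448, 0.447 and 0.407. A gap of at least 2-fold was found for 6 of the 10 members, against 18.3% of tested genes. No member's 3 control siRNA libraries overlapped its 3 vehicle libraries, as was the case for 55.9% of tested genes. The experiments differ in collection time, in transfection and in anything else done separately, which cannot be told apart, so these ratios were not tested. The treated libraries differed too: H1F0 was 23.5-fold and H1FX 3.43-fold higher in the libraries labelled CCT4 siRNA than with anticarin-β.

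Per kilobase of exon, H1FX had the highest mean level over the 12 libraries, 278 CPM per kb, followed by H2AFZ at 96.4 and H1F0 at 79.2 CPM per kb, and H2AFY2 had the lowest at 2.28. With anticarin-β, H2AFZ (184 CPM per kb) and H1FX (149) led and overlapped each other, followed by H2AFX (59.7), H2AFV (29.2), H3F3A (22.6) and H3F3B (19.3), of which the H3.3 genes overlapped. With vehicle, H2AFX (83.4 CPM per kb), H2AFZ (75.4) and H1FX (73.9) led without separating from one another, ahead of H3F3B (29.4), H2AFV (23.1) and H3F3A (12.4). In the libraries labelled CCT4 siRNA the order was H1FX (512 CPM per kb), H1F0 (130), H2AFZ (77.2), H2AFX (51.5) and H3F3B (36.4), all separated. With control siRNA it was H1FX (375 CPM per kb), H1F0 (177) and then H2AFZ (49.4), H3F3B (40.8) and H2AFX (39.9), which overlapped their neighbours in the order. H2AFJ and H2AFY2 stayed at or under 5.33 CPM per kb in all groups, and H1F0 was at 5.55 CPM per kb with anticarin-β and 3.94 with vehicle, overlapping H2AFJ in both. The level of H2AFY, at 7.89 to 10.6 CPM per kb, is divided by an exon union of 17730 bases pooled over 20 transcripts, far longer than that of any other member, and the H3F3A level excludes reads counted to its copies. The unions of H3F3B (6134 bases) and H2AFV (4749) are also long beside those of H1FX (1507) and H2AFX (1614), which lowers their places. In CPM with vehicle, H3F3B (180) stood above H2AFZ (174), H2AFX (135) and H1FX (111).

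The variants were set beside the clustered, replication-linked histone genes, whose mRNAs mostly lack a poly(A) tail. The labels do not say how RNA was selected for the libraries. The 10 members together came to 1249 ± 76.0 CPM with anticarin-β and 964 ± 40.0 CPM with vehicle, and to 1858 ± 103 CPM in the libraries labelled CCT4 siRNA and 1634 ± 27.9 CPM with control siRNA (SD, n = 3 each). The 88 HIST1 to HIST4 genes, of which 44 were tested, summed to 1040 ± 37.1 CPM with anticarin-β and 139 ± 9.96 CPM with vehicle, and to 723 ± 12.6 CPM in the libraries labelled CCT4 siRNA and 501 ± 18.3 CPM with control siRNA. Among the tested cluster genes 39 rose and none fell with the compound, and 20 rose and none fell in the libraries labelled CCT4 siRNA, against 34.9% and 10.7% of all tested genes called higher. Their median log2 fold changes were 2.56 and 0.557, beside 0.416 and 0.328 for the 10 variants. The filter on low counts keeps a gene with enough reads in 1 group. Cluster genes scarce with vehicle could thus be tested through the groups where they stood higher. These counts and medians are given only as a description of the tested cluster genes. The replicative helicase genes MCM2 to MCM7 and the clamp gene PCNA were measured beside them: with the compound 7 of 7 fell, with a median of -1.78, against 38.0% of tested genes called lower. In the libraries labelled CCT4 siRNA 4 of those 7 rose and none fell, with a median of 0.317. What part cell cycle state has in the variant values was not tested.

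**Figure D5:**
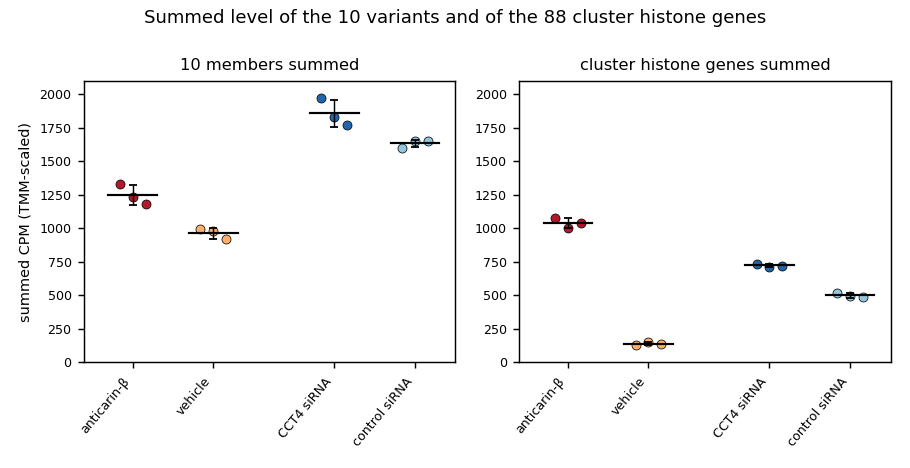
Summed level, in CPM (TMM-scaled), of the 10 variant genes at left and of the 88 clustered histone genes at right, by group on the x axis; points are libraries, long bars means and whiskers SD (n = 3). The cluster sum is 1040 CPM with anticarin-β and 139 CPM with vehicle, while the variant sum is 1249 CPM with anticarin-β and 964 CPM with vehicle.

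Of 8 genes that deposit H3.3 (the HIRA complex, ASF1 chaperones, DAXX and ATRX), 2 rose and 4 fell with anticarin-β, with a median log2 fold change of -0.751. Over all tested genes 73.0% were called in that comparison, with a median of -0.063, and 19.7% in the siRNA comparison, with a median of 0.0072, and the counts of this list and of those below are to be read beside these shares. UBN2, a HIRA complex subunit, averaged 75.7 ± 2.70 CPM with anticarin-β and 19.4 ± 1.46 CPM with vehicle (adjusted p = 2.73e-10). CABIN1, another subunit, averaged 16.6 ± 2.09 CPM with anticarin-β and 74.2 ± 4.94 CPM with vehicle (adjusted p = 5.62e-10). ASF1B, the ASF1 form tied to dividing cells, averaged 23.8 ± 2.23 CPM with anticarin-β and 97.9 ± 7.63 CPM with vehicle (adjusted p = 4.11e-10, edgeR; SD, n = 3 each). Thus subunits of 1 complex changed in opposite directions, 3.90-fold up and 4.46-fold down. In the libraries labelled CCT4 siRNA 2 rose and 2 fell: UBN2 was 1.37-fold higher, ASF1B 1.28-fold higher and CABIN1 1.45-fold lower (adjusted p = 0.00135, 0.00941 and 0.00132, edgeR).

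Of 18 genes of the complexes and chaperones that exchange H2A.Z, 6 rose and 10 fell with anticarin-β (median -0.463; 73.0% of all tested genes called), and 1 rose and 2 fell in the libraries labelled CCT4 siRNA (median -0.0346; 19.7% of all called). The genes named here are subunits of the p400 and TIP60 complex, some of them shared with other complexes. With the compound EP400, its motor, was 2.19-fold lower (adjusted p = 5.44e-08), RUVBL1, an ATPase of several remodelling complexes, 2.52-fold lower (adjusted p = 7.16e-08) and EPC1, a scaffold subunit, 2.45-fold higher (adjusted p = 1.26e-06, edgeR). In the libraries labelled CCT4 siRNA BRD8 was 1.42-fold lower (adjusted p = 0.000788), TRRAP 1.33-fold higher (adjusted p = 0.00588) and EP400 1.21-fold lower (adjusted p = 0.0325, edgeR).

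Of 12 genes that phosphorylate, read or dephosphorylate H2AX, 4 rose and 7 fell with anticarin-β (median -0.347), and 1 rose and 2 fell in the libraries labelled CCT4 siRNA (median -0.0255). BRCA1, a repair factor recruited to H2AX-marked breaks, was 5.76-fold lower with the compound and 1.65-fold lower in the libraries labelled CCT4 siRNA (adjusted p = 3.84e-10 and 0.000392, edgeR). PPP2CA, the catalytic subunit of a phosphatase that acts on H2AX, was 2.05-fold and 1.22-fold higher in the same comparisons (adjusted p = 4.62e-08 and 0.0183, edgeR). EYA3, a tyrosine phosphatase of H2AX, rose 2.18-fold with the compound (adjusted p = 2.69e-08), and MDC1, which binds phosphorylated H2AX, was 1.36-fold lower in the libraries labelled CCT4 siRNA (adjusted p = 0.0196, edgeR).

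Among 10 general histone chaperones, 4 rose and 5 fell with anticarin-β (median -0.211), and 4 rose and 1 fell in the libraries labelled CCT4 siRNA (median 0.223). SUPT16H, a subunit of the FACT complex, was 2.78-fold lower with the compound (adjusted p = 5.67e-09) and 1.23-fold lower in the libraries labelled CCT4 siRNA (adjusted p = 0.0254, edgeR), where SSRP1, its partner in FACT, was 1.27-fold higher (adjusted p = 0.00588). NAP1L4, a carrier of H2A and H2B, was 2.69-fold lower and SPTY2D1, a chaperone of H3 and H4, 2.24-fold higher with the compound (adjusted p = 5.46e-08 and 2.39e-08, edgeR). SET, an inhibitor of histone acetylation that also carries histones, was 1.21-fold higher in the libraries labelled CCT4 siRNA (adjusted p = 0.0114, edgeR). Of 10 other variant genes outside the clusters, only CENPA, the centromeric H3, had enough reads to be tested, with 12.0 ± 2.08 CPM under anticarin-β and 9.69 ± 2.87 CPM under vehicle (adjusted p = 0.166, edgeR), and 13.6 ± 0.535 CPM in the libraries labelled CCT4 siRNA and 11.3 ± 0.397 CPM with control siRNA (adjusted p = 0.361, edgeR).

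Genes with a pattern most like that of the 2 most abundant members were ranked by Pearson's r of log2 CPM over the 12 libraries, which fall into 4 groups and share their depth, so r mostly follows group means and is given as a description. PIM1 (0.999), DLG4 (0.991) and PRKY (0.989) were nearest to H1FX, for which 125 of 9830 genes reached 0.95. FBXL19-AS1 (0.990), PRMT1 (0.990) and NPM1P39 (0.989) were nearest to H2AFZ, for which 253 of 9830 did. FBXL19-AS1 is an antisense gene and NPM1P39 a pseudogene, so their counts are uncertain.

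Several members share exon bases with a gene on the other strand, and no source used here states whether reads were counted by strand. H2AFY shares 28% of its exon bases with C5orf66, which had 34 to 268 counts per library where H2AFY had 1568 to 3610. H1FX shares 22.9% with H1FX-AS1, at 5 to 43 counts against 1747 to 13108. H2AFZ shares 9.68% with RP11-15B17.1, at 0 to 25 counts against 1648 to 5237. H3F3B shares 3.49% with UNK, at 445 to 727 counts against 1014 to 5064. H2AFY2 shares 0.556% with AIFM2, at 374 to 1005 counts against 20 to 170. What part such overlaps have in the values was not tested.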

How the data were processed

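The authors deposited raw read counts per gene in 1 table of 50868 genes for 12 libraries, not normalized and not pooled. The kit was a stranded TruSeq one, per the labels' protocols. The submitters' processing notes name STAR 2.5.2a, Subread, featureCounts 1.5.0 and the build hg38. The annotation release, strand setting and handling of multi-mapping reads are not stated there, which bears on H3F3A and on genes with antisense partners.

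Labels gave groups and replicate numbers. No 2 replicates agreed within sampling noise (chi-square per degree of freedom 9.64 to 30.7), so each counted as 1 sample. Counts were tested with edgeR 4.0.16 (R 4.3.3): two-sided quasi-likelihood test, TMM scaling, filterByExpr, 1 mean per group over all 12 libraries, Benjamini-Hochberg adjustment over the 17717 genes tested, called under 0.05. Each SE was computed from the log2 fold change and its F value. The prior count was 0.125 for log2 fold changes and 0.5 for paired gene ratios. The difference of the responses was a contrast in the same fit. The test was checked on simulated counts in which few genes changed, up and down equally. That check does not cover scaling when most genes change, as with the compound.

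Exon lengths, coding sequences and overlaps came from GENCODE 29 on GRCh38, in which 98.5% of gene identifiers were found, and promoters from RefSeq on GRCh38.p14. CPM per kb divides by the exon union. All 10 members are named, with CCT4, the 3 genes of each companion list with the smallest p in each comparison, and the 3 genes nearest to the 2 most abundant members among those of at least 10 CPM. One marker of the lists is not reported here. The members, lists and tests were chosen with earlier results of these data known.

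Results were recomputed with RLE, upper-quartile or no TMM factors, with DESeq2 1.42.0 or limma-voom (limma 3.58.1), with other filters on low counts, with the libraries of 1 experiment only, with a replicate block, at stricter thresholds, with another prior count for ratios, and without each library in turn. Adding pseudogene counts to H3F3A was chosen after seeing the data.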

Additional observations from a re-analysis of the deposited data

How the results depend on the processing

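Over 700 member log2 fold changes recomputed under alternatives, 629 kept direction and side of the threshold, 59 lost the call, 8 gained one and 4 changed sign. The sign changes were H2AFV with the compound under library totals (-0.0853), the difference of the H3F3A responses under library totals (-0.0239) and without vehicle replicate 1 (-0.0116; range over omitted libraries up to 0.486), and H3F3B in the siRNA experiment without control replicate 2 (0.055; otherwise down to -0.295). The H2AFZ to H2AFV ratio in the siRNA experiment also changed sign, to 0.0616, without control replicate 3 (lowest -0.0865). The cause was not tested.

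For the compound, library totals left 3 members higher, and a 2-fold threshold 2 higher and 1 lower, with 3700 and 4401 genes over all. For the siRNA comparison, an adjusted p under 0.01 left 2 members higher and 0 lower (840 and 677 genes over all), a 2-fold threshold 0 and 0 (284 and 259 genes), and library totals 2 higher (902 genes higher and 2800 lower). Leaving out 1 library gave 2 to 5 members higher and 0 to 1 lower, with 1182 to 2214 genes higher and 995 to 1812 lower. Fewer libraries enter those fits. For the difference of the responses, an adjusted p under 0.01 left 2 members higher and 4 lower (3869 and 4579 genes over all). Library totals gave 1 higher and 5 lower (3724 and 7283 genes over all). RLE scaling, DESeq2 and limma-voom gave the member counts of edgeR in all 3 comparisons.

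Within each experiment, libraries with the same replicate number did not deviate together over all tested genes (correlation of deviations from -0.0308 to 0.0264), so the main fit did not pair samples. Such a correlation cannot show whether single genes share a replicate effect. H3F3A was lowest in replicate 1 of every group. With a replicate block the siRNA comparison called 3 members higher and 0 lower, with 1300 genes higher and 1050 lower over all. H2AFY (adjusted p = 0.0597), H1FX (0.0632) and H1F0 (0.0776) lost their calls there, and H3F3A gained one (0.0125, all by edgeR). The block changed no member's call in the compound comparison or in the difference of the responses. H2AFY2 rests on 20 to 25 reads per treated library, which limits the precision of its fold change.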
